A study of Mus musculus with 6 samples.

Results

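Loss of a secreted ligand was set against loss of one of its receptors in the same tumour cells. The comparison holds 4 of the 6 sequenced libraries of the series: 2 of cells with a knock-down of Ntn1 (labelled KDNTN1) and 2 of cells with a knock-down of Unc5b (KDUNC5B), called here the ligand and the receptor knock-down. They were compared gene by gene over 15330 genes, those whose mean over all 6 libraries was 20 or more. All cells were of the line LKPR EPCAM+, an epithelial line grown from squamous cell carcinoma of mouse skin, and every group, the control included, had the same genotype, which included Lgr5CreER, p53fl/fl and Rosa26-YFP+/+. In that genotype a Cre recombinase made in Lgr5-expressing cells, such as those of the hair follicle, deletes p53 and marks the cells with YFP. The groups differed in the lentivirus they had received, a pLKO.1-puro vector against Ntn1 or against Unc5b, while the 2 libraries of the control group had the empty vector and are called the control. After 6 days in culture live cells with YFP and EPCAM were sorted, so each group is a culture of 1 line that kept EPCAM, and cells that had lost it were not sampled. How many constructs were used per gene, and whether libraries of 1 group stand for different cultures or infections, is not given in the sources used here. P-values therefore cover no more than how far these libraries lie apart, a spread that may be technical.

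Netrin-1, the product of Ntn1, is a secreted protein related to laminins that guides growing axons and also acts on epithelial and tumour cells. UNC5B is one of its transmembrane receptors, and DCC, neogenin and the other UNC5 proteins also bind it. UNC5B is known as a dependence receptor: without ligand it can signal cell death through a death domain and the kinase DAPK1, and with ligand this signal is blocked. Removing the ligand and removing 1 receptor are therefore different perturbations of the pathway. The title of the series links netrin-1 to the epithelial-to-mesenchymal transition, in which epithelial cells lose junctions and gain mesenchymal features.

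Values are given in the deposited unit, reads scaled to a total of about 20 M per library and rounded, and differences are ligand knock-down minus receptor knock-down on the scale log2(value + 5), with the standard error of the fit over n = 2 libraries per group. The spacing of the deposited values gives 6.54 to 10.2 M reads per library, so that 1 read is worth 1.97 to 3.06 and a floor of 3 reads stands at 5.90 to 9.17, for counting error only. Where 1 group lies near that floor the log2 difference depends on the 5 added and is no measure of the fold, so the levels are printed. Libraries of a group correlated at r = 0.990 (ligand knock-down), 0.986 (receptor knock-down) and 0.980 (control) across genes, and libraries of different knock-downs at 0.964 to 0.967. Genes are not independent replicates. The sorted epithelial identity held in the data: all 9 epithelial markers were measured in each library, with sums of 84610 and 80472 in the ligand knock-down, 63474 and 67433 in the receptor knock-down and 65306 and 61684 in the control. Summed fibroblast markers were 142 to 318 in the 6 libraries. Immune markers summed to 644 to 1844, most of it Csf1r, with Ptprc at 5 or less and Tyrobp, C1qa, C1qb, Adgre1 and Lyz2 at 0 in all 6 libraries. Endothelial markers summed to 96 to 238, with Emcn at 0 throughout, and melanocyte and nerve markers to 343 to 1557, most of it Mitf. Ribosomal protein genes took 1.86% and 1.90% of the reads in the ligand knock-down, 2.24% and 2.37% in the receptor knock-down and 2.29% and 2.44% in the control. The part of this shift in the results was not tested.

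The knock-downs gave different transcriptomes. In bulk libraries such as these, a change in the number of cells that carry a transcript and a change in its level per cell cannot be told apart. Of the 15330 genes, 1088 (7.10%) were called at a Benjamini-Hochberg adjusted p under 0.05 by limma. The ligand knock-down was higher in 636 of them (4.15% of the genes tested) and the receptor knock-down in 452 (2.95%). The larger differences lay mostly on 1 side. Of the 176 called genes at least 4-fold apart on the scale log2(value + 5), 155 were higher in the ligand knock-down. The other 21 were higher in the receptor knock-down. With 1 added in place of 5 the counts were 163 and 29, and with 20 added 81 and 8. The median level of the 155 genes was 139 in the ligand knock-down, 12.5 in the receptor knock-down and 46 in the control, and 43 of them were at or under 3 reads in both receptor knock-down libraries. The 21 genes had median levels of 23.5, 124.5 and 68.5 in the same order. In all 1088 genes the 2 groups of libraries did not overlap, but that was also so in 8527 (55.6%) of all genes tested. The median difference of all genes was -0.05. With upper-quartile scaling, which moved that median to 0.01, 69.2% of the calls were higher in the ligand knock-down, against 58.5% as deposited.

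**Figure D1:**
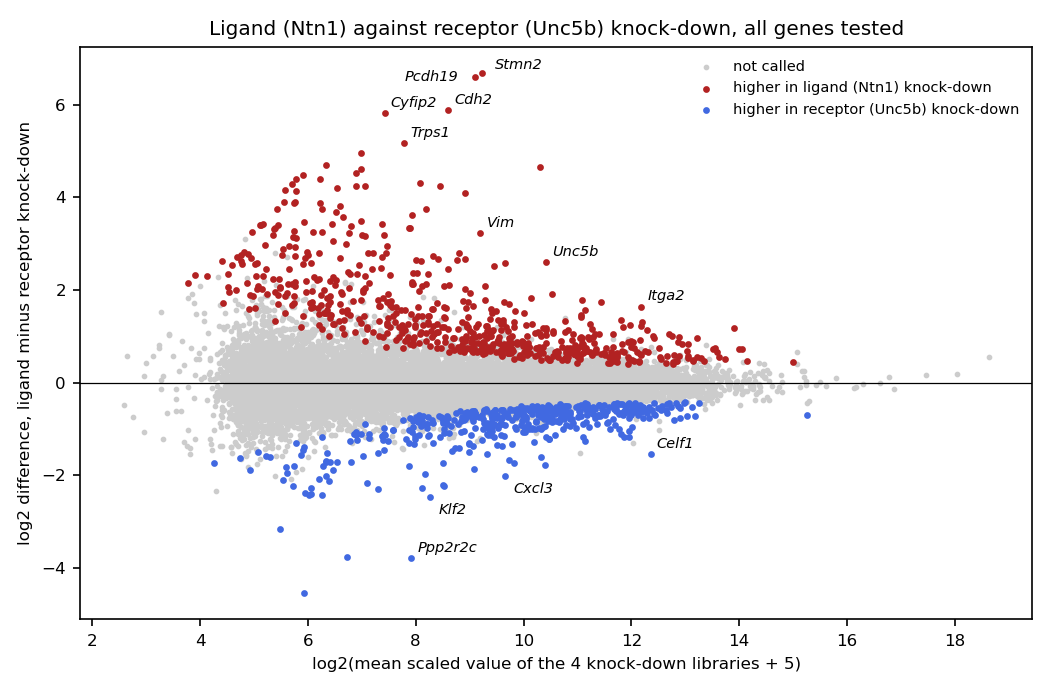
Each point is 1 of the 15330 genes tested, with the log2 of the mean scaled value of the 4 knock-down libraries plus 5 on the x axis and the log2 difference, ligand minus receptor knock-down, on the y axis. Of the 636 genes called higher in the ligand knock-down (red), which reach a log2 difference of 6.69, 155 lie at 2 or more. Of the 452 called higher in the receptor knock-down (blue), 21 lie at -2 or less. Most called genes on both sides lie within 2 of 0, and genes not called are grey.

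How many genes passed depended on the libraries in the fit. With ligand knock-down library 1 left out 34 genes were called and with library 2 left out 52, while leaving out receptor knock-down library 1 or 2 gave 318 and 330. Leaving out control library 1 or 2 gave 1815 and 1842 calls, and a fit to the 4 knock-down libraries alone gave 1856. Of the 1088 called genes, 1054 and 1036 lost their call without ligand knock-down library 1 or 2, and 779 and 770 without receptor knock-down library 1 or 2. None of them changed sign in these 4 fits, which the lack of overlap between the knock-downs had already fixed. Without the filter on low values 302 genes were called, and without a variance trend 454. Of the genes named by rule, 134 were called, and 15 kept their call under every alternative in which they were tested. Of these, Unc5b, Stmn2, Pcdh19, Cdh2, Cyfip2, Trps1, Lrch2, Mcc, Map2, Lox, Apcdd1 and Pmepa1 were higher in the ligand knock-down. Ppp2r2c, Tgm1 and Celf1 were higher in the receptor knock-down. Apcdd1 was not tested with the filter at a mean of 100.

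Each targeted gene was lowest in its own knock-down. Unc5b was at 419 and 352 in the receptor knock-down, at 2311 and 2382 in the ligand knock-down and at 1527 and 1573 in the control. The groups did not overlap, and the knock-downs differed by 2.60 ± 0.13 (adjusted p = 0.00022). Ntn1 was at 359 and 431 in the ligand knock-down, at 1319 and 771 in the receptor knock-down and at 1566 and 2588 in the control. The difference was -1.35 ± 0.29 (adjusted p = 0.0316), and the receptor knock-down libraries lay below both control libraries (log2 difference -0.99, adjusted p = 0.0638). Unc5b in the ligand knock-down was above the control (log2 difference 0.60, adjusted p = 0.0193). The contrast between the knock-downs in Unc5b thus holds a higher level in 1 arm as well as a lower level in the other. Ntn1 lost its call under 6 of 16 alternatives, with a highest adjusted p of 0.258: without ligand knock-down library 1 or 2 or receptor knock-down library 1, without a filter on low values, without a variance trend and with a replicate block.

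Among the other netrin ligand and receptor genes tested, Flrt2 alone was called. Ntn4 was the only other ligand gene tested, at 64 and 67 in the ligand knock-down and 75 and 23 in the receptor knock-down (adjusted p = 0.568). Of 8 receptor and co-receptor genes tested, 2 (25.0%, against 7.10% of all genes) were called, Unc5b itself and Flrt2. Unc5b was the target of 1 arm, so its call follows from the design and is no result about the list. The median difference of the 8 genes, Unc5b included, was 0.85 against -0.05 over all genes. Flrt2, whose adhesion protein binds UNC5 receptors, was at 314 and 278 in the ligand knock-down, 32 and 16 in the receptor knock-down and 20 and 41 in the control, a difference of 3.43 ± 0.40 (adjusted p = 0.00292). Unc5c, another netrin receptor, was at 14 and 28, 0 and 2, and 37 and 149 in the same order (adjusted p = 0.0899). Neo1, which encodes neogenin, was at 5386 and 5125 in the ligand knock-down and 4741 and 3961 in the receptor knock-down (adjusted p = 0.253). Dcc, Unc5a, Unc5d, Dscam and Dscaml1 were at 0 in all 6 libraries. In the fits without ligand knock-down library 1 or 2 Flrt2 was no longer called, with adjusted p = 0.0736 at the highest.

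Of 17 signal effectors of netrin receptors, 3 were higher in the ligand knock-down and 2 in the receptor knock-down (29.4%, all genes 7.10%). Dapk1, the death-associated kinase that binds UNC5B, was at 292 and 312 in the ligand knock-down, at 43 and 35 in the receptor knock-down and at 8 and 25 in the control (2.81 ± 0.40, adjusted p = 0.00697). Fyn, a SRC family kinase, was at 782 and 847, 212 and 206, and 212 and 368 in the same order (1.94 ± 0.25, adjusted p = 0.00418). Enah, an actin regulator, differed by 0.59 ± 0.11 (adjusted p = 0.0196). Dock1, an exchange factor for RAC1, was lower in the ligand knock-down at 987 and 1122 than in the receptor knock-down at 1926 and 1684 (adjusted p = 0.012). Ppp2r1b, a scaffold subunit of phosphatase 2A, was likewise lower, at 1310 and 1330 against 2172 and 2175 (adjusted p = 0.0124), though its exons overlap another annotated gene. All 5 calls were lost without ligand knock-down library 1 or 2 (highest adjusted p 0.211), and 3 each without receptor knock-down library 1 or 2.

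The largest differences were in genes that were close to absent in the receptor knock-down, among them genes of neurons, of cell adhesion and of the actin skeleton. Stmn2, a microtubule regulator of neurons, was at 1184 and 1186 in the ligand knock-down, at 2 and 14 in the receptor knock-down and at 31 and 57 in the control (log2 difference 6.69 ± 0.47, adjusted p = 0.000858). Pcdh19, a protocadherin, was at 1141 and 1034 in the ligand knock-down and 4 and 9 in the receptor knock-down (6.60 ± 0.26, adjusted p = 4.81e-05). Its control libraries, at 869 and 1139, overlapped the ligand knock-down, and the receptor knock-down was the low group. Cdh2, which encodes N-cadherin, was at 811 and 709, 9 and 7, and 43 and 98 in the ligand knock-down, the receptor knock-down and the control (5.88 ± 0.37, adjusted p = 0.000774). Cyfip2, a subunit of the WAVE complex that drives actin branching, was at 283 and 382 in the ligand knock-down and at 2 or less in the other 4 libraries (adjusted p = 0.000858). Trps1, a GATA-type repressor, was at 392 and 459, 9 and 5, and 204 and 542 in the same order (adjusted p = 0.000879).

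The 15 genes with the largest differences on that side took 3 positions relative to the control, each by its own comparison. Pcdh19, Trps1, Lrch2, Map2 and Pdzrn3 were called lower in the receptor knock-down than in the control (log2 differences -3.42 to -6.48), and the ligand knock-down did not pass (adjusted p = 0.18 to 0.997). Map2, a neuronal microtubule-associated protein, was at 559 and 761 in the ligand knock-down, 41 and 21 in the receptor knock-down and 505 and 846 in the control. Cyfip2, Gfra2, Stfa3, Mcc, Slco4a1 and Adgrg6 were called higher in the ligand knock-down than in the control (log2 differences 3.59 to 5.82), and the receptor knock-down did not pass (adjusted p = 0.0842 to 1). Gfra2, a co-receptor for the neurturin signal, was at 252 and 232 in the ligand knock-down, 4 and 2 in the receptor knock-down and 2 and 9 in the control. Adgrg6, an adhesion G protein-coupled receptor, was at 452 and 437, 43 and 23, and 8 and 27 in the same order. Stmn2, Cdh2, Lox and Gxylt2 passed in both comparisons, above the control in the ligand knock-down and below it in the receptor knock-down. Gxylt2, a xylosyltransferase that modifies EGF repeats, was at 2278 and 2581, 145 and 56, and 265 and 1047 in that order. The comparisons with the control share its 2 libraries, which stand far apart for Gxylt2, Trps1 and Pdzrn3.

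On the other side the largest difference was in Ppp2r2c, a regulatory subunit of phosphatase 2A. It was at 566 and 324 in the receptor knock-down, 38 and 18 in the ligand knock-down and 1435 and 1457 in the control (-3.78 ± 0.34, adjusted p = 0.00124). Both knock-downs were below the control, the ligand knock-down further (log2 differences -5.53 and -1.74). Klf2, a Krüppel-like transcription factor, was at 618 and 424 in the receptor knock-down, 81 and 95 in the ligand knock-down and 134 and 242 in the control (-2.48 ± 0.31, adjusted p = 0.00391). Tgm1, the transglutaminase of the cornified envelope, was at 489 and 419, 93 and 86, and 1022 and 846 in the same order (-2.28 ± 0.18, adjusted p = 0.000879). Mfsd1, a lysosomal transporter, was at 2381 and 1825, 590 and 618, and 1104 and 1381 (-1.78 ± 0.17, adjusted p = 0.00142). Celf1, an RNA-binding protein that controls splicing and mRNA decay, was at 7585 and 8037 in the receptor knock-down and 7376 and 6956 in the control, against 2563 and 2789 in the ligand knock-down (-1.54 ± 0.11, adjusted p = 0.000858). Dpysl2, a cytoskeletal protein of semaphorin signalling, was at 1588 and 1193 in the receptor knock-down, 1549 and 1278 in the control and 388 and 434 in the ligand knock-down (-1.73 ± 0.18, adjusted p = 0.00177). Lepr, the leptin receptor, was at 413 and 310 in the receptor knock-down, 102 and 95 in the ligand knock-down and at 6 and 0 in the control, so that both knock-downs were above the control.

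The remaining genes of the 15 were Scd1, Lef1, Cxcl3, Sgpp2, Amigo2, Csf1r, Gpa33 and Asb2, with differences of -1.53 to -2.22. Scd1, the stearoyl-CoA desaturase, was at 925 and 292 in the receptor knock-down and 93 and 125 in the ligand knock-down, so its Unc5b libraries differed by more than 3-fold. Csf1r, a receptor of macrophages that these cells also transcribed, was at 1569 and 1003, 347 and 443, and 1213 and 1511 in the receptor knock-down, the ligand knock-down and the control. Of other macrophage markers, Adgre1, C1qa, C1qb and Lyz2 were at 0 in all 6 libraries, while Cd14 was at 134 to 202 and Cd68 at 25 to 122. Of these 30 largest differences, 17 and 15 lost their call without ligand knock-down library 1 or 2 (highest adjusted p 0.272) and 4 and 1 without receptor knock-down library 1 or 2. Exons of Pcdh19, Trps1, Mcc, Map2, Lox, Adgrg6, Tgm1, Lef1, Sgpp2, Amigo2 and Csf1r overlap another annotated gene, and reads of the partners cannot be told apart where strand was not used. Stfa3 has near-identical family members, between which reads can be split.

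**Figure D2:**
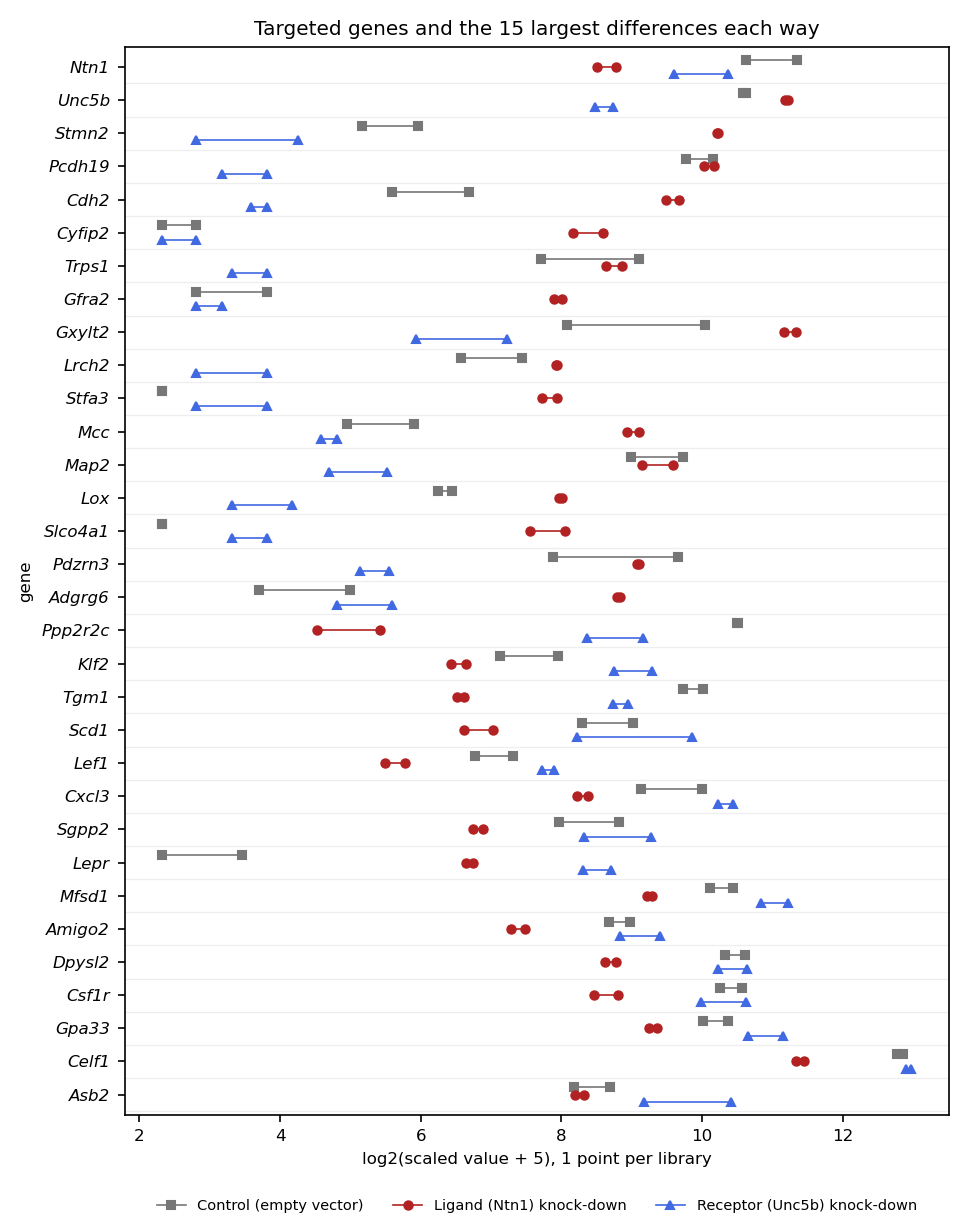
Each point is 1 library, at log2(scaled value + 5), for the targeted genes and for the 15 genes with the largest differences in each direction. Grey squares are the control, red circles the ligand knock-down and blue triangles the receptor knock-down, and the line joins the 2 libraries of a group. From Stmn2 to Adgrg6 the blue points lie far left of the red ones, and from Ppp2r2c to Asb2 they lie to the right, with the control on either side or between.

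Upstream sequences are shown for some of the genes with the largest contrast between the knock-downs, to give the promoter context of each. RefSeq starts (GRCm38.p6) were found for 9 of the 15 genes higher in the ligand knock-down and 12 of the 15 higher in the receptor knock-down. The 250 bases before the start are printed 5′ to 3′ on the strand of the gene for 2 of the largest differences in each direction. Only 1 RefSeq start per gene was used. The Cyfip2 window lies within the annotated gene, which begins at 46312859 on the minus strand. The Klf2 window runs past the annotated start of that gene at 72319033. Capitals mark the E-box CACCTG or its reverse complement CAGGTG, a sequence that ZEB and Snail factors bind.
Pcdh19, chrX:133688994-133689243, minus strand: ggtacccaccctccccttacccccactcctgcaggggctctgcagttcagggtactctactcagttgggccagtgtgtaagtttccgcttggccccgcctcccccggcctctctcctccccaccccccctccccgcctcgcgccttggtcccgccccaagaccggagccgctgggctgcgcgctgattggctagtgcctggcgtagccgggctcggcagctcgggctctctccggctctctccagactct
Cyfip2, chr11:46312359-46312608, minus strand: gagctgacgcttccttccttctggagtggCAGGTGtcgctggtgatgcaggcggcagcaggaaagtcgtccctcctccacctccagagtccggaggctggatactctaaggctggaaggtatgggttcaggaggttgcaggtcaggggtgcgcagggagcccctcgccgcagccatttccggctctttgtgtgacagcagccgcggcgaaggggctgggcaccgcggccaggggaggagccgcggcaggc
Ppp2r2c, chr5:36868260-36868509, plus strand: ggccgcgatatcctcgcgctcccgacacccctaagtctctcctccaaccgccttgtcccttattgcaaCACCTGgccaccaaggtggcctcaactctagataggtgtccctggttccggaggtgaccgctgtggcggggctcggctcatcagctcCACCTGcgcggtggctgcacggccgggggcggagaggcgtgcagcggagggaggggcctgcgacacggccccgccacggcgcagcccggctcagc
Klf2, chr8:72318812-72319061, plus strand: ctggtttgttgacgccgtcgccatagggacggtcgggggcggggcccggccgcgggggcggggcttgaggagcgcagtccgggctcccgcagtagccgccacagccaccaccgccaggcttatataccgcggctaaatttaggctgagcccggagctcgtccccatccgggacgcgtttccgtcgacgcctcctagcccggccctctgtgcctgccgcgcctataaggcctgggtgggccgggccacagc

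All 4 were rich in GC, from 66.4% to 71.2%, with 16 to 29 CpG dinucleotides each. The E-box was present once in Cyfip2 and at 2 places in Ppp2r2c, and its letters were not in these windows of Pcdh19 and Klf2. Over all starts, 16.6% of those of genes called higher in the ligand knock-down held the E-box, 16.6% of those called higher in the receptor knock-down, and 15.9% of those of all genes tested. The AP-1 motif TGANTCA, searched on both strands, stood in 6.08%, 3.42% and 4.76% of the same sets, and the TEAD motif GGAATG in 11.0%, 8.80% and 10.7%. These shares count 609, 409 and 12387 starts and describe the letters only.

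Of the gene lists, cadherins had the largest share of called members. Of 17 cadherins and protocadherins outside the classical epithelial and mesenchymal ones, 7 were higher in the ligand knock-down and 2 in the receptor knock-down. The share was 52.9%, against 7.10% of all genes, with a median difference of 0.58. Another 17 members lay below the filter. Cdh5 and Pcdh17 passed it only through their ligand knock-down values. The list was chosen with earlier results of these data known, so its share describes the list only. Cdh5, the cadherin of endothelial junctions, was at 86 and 113 in the ligand knock-down, 2 and 0 in the receptor knock-down and 0 in both control libraries (adjusted p = 0.00229). Of the other endothelial markers, Pecam1 was at 88 to 107 in all 6 libraries, and Kdr and Emcn were at 0 in the 4 knock-down libraries. Tie1, which was below the filter, was at 12 and 15 in the ligand knock-down, 0 and 14 in the receptor knock-down and 0 in both control libraries. Pcdh17 was at 64 and 86 against 2 and 0 (adjusted p = 0.00307), and Cdh10 at 254 and 223 against 38 and 23 (2.81 ± 0.37, adjusted p = 0.00487). Celsr2, Pcdh18 and Fat1 were the other 3. Fat1, a giant cadherin, differed least, at 16623 and 15280 against 12093 and 10449 (0.50 ± 0.12, adjusted p = 0.0377). Higher in the receptor knock-down were Fat2, at 154 and 79 against 26 and 31 (adjusted p = 0.033), and Cdh13, a cadherin anchored by a lipid, at 992 and 732 against 483 and 508 (adjusted p = 0.0306). Without ligand knock-down library 1 or 2, 8 of the 9 calls were lost each time (highest adjusted p 0.313), and without receptor knock-down library 1 or 2, 5 and 3.

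The called desmosome genes were higher in the ligand knock-down and the called claudin genes in the receptor knock-down. Of 42 epithelial junction and identity genes, 7 were called on the first side and 4 on the second (26.2%, all genes 7.10%). The median of the list was 0.13. Dsg2, a desmosomal cadherin, was at 1153 and 1223 in the ligand knock-down, 167 and 243 in the receptor knock-down and 165 and 98 in the control (2.53 ± 0.27, adjusted p = 0.0022). Dsg3, the desmoglein of basal keratinocytes, was at 143 and 165, 13 and 7, and 16 and 9 (adjusted p = 0.00256). Dsc2 was at 152 and 159, 62 and 46, and 49 and 48 (adjusted p = 0.0172). Perp and Pkp1, a membrane protein and a plakophilin of desmosomes, differed by 0.85 ± 0.12 and 0.67 ± 0.11 (adjusted p = 0.00733 and 0.0112). Dsp and Jup, which link desmosomes to keratin, were not called (adjusted p = 0.144 and 0.481).

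Cdh1, which encodes E-cadherin, was at 9380 and 8767 in the ligand knock-down, 6446 and 5719 in the receptor knock-down and 7460 and 8419 in the control (0.58 ± 0.12, adjusted p = 0.0228). Cdh3, P-cadherin, was also called (0.51 ± 0.13, adjusted p = 0.0491). Thus E-cadherin and N-cadherin mRNA were both higher in the ligand knock-down. Cldn6, Cldn4 and Cldn3, claudins of tight junctions, were higher in the receptor knock-down by 0.89 ± 0.11, 0.66 ± 0.10 and 0.64 ± 0.13 (adjusted p = 0.00402, 0.0094 and 0.0247). Cldn1 lay in the opposite direction and did not pass, at 635 and 758 in the ligand knock-down and 325 and 426 in the receptor knock-down (0.89 ± 0.27, adjusted p = 0.0939). Cldn4 was at 8192 and 7658 in the receptor knock-down, 7837 and 8145 in the control and 5176 and 4850 in the ligand knock-down. Trp63, the master regulator of stratified epithelia, was at 152 and 88, 94 and 96, and 33 and 31 in that order (adjusted p = 0.0172). Epcam, on which the cells were sorted, was at 10127 and 9736 in the ligand knock-down and 9186 and 9121 in the receptor knock-down (adjusted p = 0.581). All 11 calls of the list were lost without ligand knock-down library 1 or 2 (highest adjusted p 0.323), and 8 and 5 without receptor knock-down library 1 or 2. Exons of Dsg2 and Cldn3 overlap another gene.

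**Figure D3:**
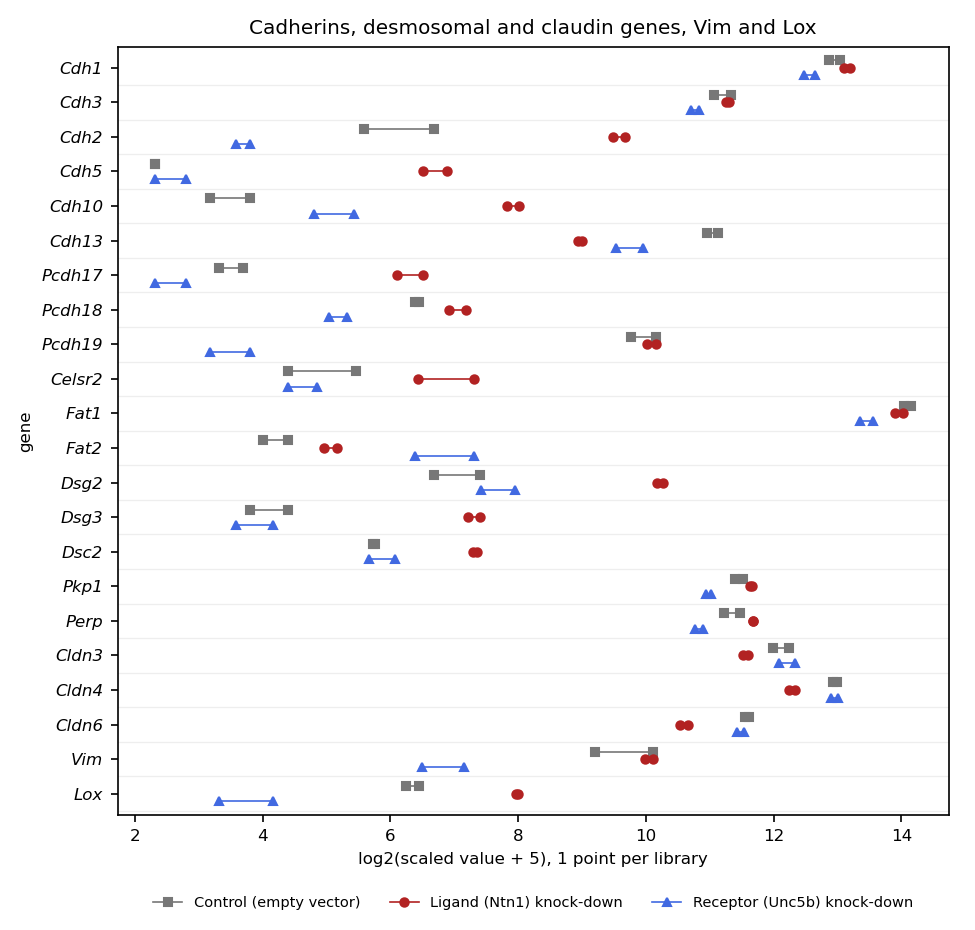
Each point is 1 library at log2(scaled value + 5) for cadherin, desmosome and claudin genes, Vim and Lox, with colours and marks as in the plot of the largest differences. Desmogleins Dsg2 and Dsg3 and cadherins Cdh2, Cdh5, Cdh10, Pcdh17 and Pcdh19 are far higher in the ligand knock-down than in the receptor knock-down, while Cldn3, Cldn4 and Cldn6 are lower there.

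The called mesenchymal genes were mostly low in the receptor knock-down. Of 30 mesenchymal and matrix genes, 7 were higher in the ligand knock-down and 1 in the receptor knock-down (26.7%, all genes 7.10%). The median of the list was 0.31. Vim, the intermediate filament vimentin, was at 1101 and 1009 in the ligand knock-down, 85 and 137 in the receptor knock-down and 582 and 1102 in the control (3.23 ± 0.31, adjusted p = 0.00151). Its call was lost only without ligand knock-down library 1 (adjusted p = 0.0563). Lox, the collagen cross-linking lysyl oxidase, was at 252 and 245, 13 and 5, and 71 and 82 in the same order (4.24 ± 0.34, adjusted p = 0.000879). Fstl1, a secreted follistatin-like glycoprotein, was at 200 and 251, 13 and 30, and 22 and 57 (adjusted p = 0.00761). Col5a1, a fibrillar collagen chain, was at 1160 and 1290 against 387 and 334 (1.75 ± 0.40, adjusted p = 0.0362). Ecm1 and Zyx were the other called members. Spp1, osteopontin, was the exception, at 53115 and 43330 in the receptor knock-down against 28875 and 30431 (adjusted p = 0.0161). Fn1, fibronectin, was at 54200 and 36578 in the receptor knock-down and 32409 and 33202 in the ligand knock-down and did not pass (adjusted p = 0.453). Summed fibroblast markers were 318 and 214 in the ligand knock-down and 248 and 148 in the receptor knock-down, which overlap. Most of each sum was Pdgfra. Pdgfrb, which was below the filter, was at 36 and 31 in the ligand knock-down, 0 and 2 in the receptor knock-down and 8 and 7 in the control. The part of these markers in the result was not tested. Of the 8 calls, 6 and 5 were lost without ligand knock-down library 1 or 2 (highest adjusted p 0.286) and 5 and 3 without receptor knock-down library 1 or 2.

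Of 24 transcription factors known to drive the transition, 2 were called on each side (16.7%, all genes 7.10%). Ets1 was at 1819 and 1563 in the ligand knock-down against 748 and 947 in the receptor knock-down (1.0 ± 0.18, adjusted p = 0.0175). Lef1, a nuclear partner of beta-catenin, was at 207 and 232 in the receptor knock-down against 50 and 40 (adjusted p = 0.00391). Snai1, the repressor Snail, was at 534 and 396 against 262 and 248 (-0.84 ± 0.19, adjusted p = 0.0362). Zeb1, Zeb2 and Twist1 were not called (adjusted p = 0.418, 0.0672 and 0.0661). Snai2, below the filter and named after its values were seen, was at 40 and 28 in the ligand knock-down, 2 and 2 in the receptor knock-down and 10 and 27 in the control. None of the 4 calls held without ligand knock-down library 1 or 2 (highest adjusted p 0.251), and 3 and 1 were lost without receptor knock-down library 1 or 2.

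Of 15 keratins, 2 were called (13.3%, all genes 7.10%), both higher in the ligand knock-down and both known from activated epidermis. Krt6a was at 789 and 731 in the ligand knock-down, 62 and 176 in the receptor knock-down and 14 and 7 in the control (2.80 ± 0.45, adjusted p = 0.0105), though reads may be shared with its near-identical copy Krt6b. Krt17 was at 1491 and 1511, 365 and 753, and 57 and 41 (1.51 ± 0.32, adjusted p = 0.0279). Both knock-downs were thus above the control for both genes. Krt14, of basal keratinocytes, was at 5233 and 4795 in the ligand knock-down and 1759 and 3817 in the receptor knock-down (adjusted p = 0.221), and Krt5, its partner, at 1034 and 1027 against 697 and 776 (adjusted p = 0.0841). Krt8 and Krt18 of simple epithelia were not called (adjusted p = 0.329 and 0.303). Krt6a and Krt17 lost the call without ligand knock-down library 1 or 2, and Krt17 also without receptor knock-down library 1. Neither was called without a filter on low values or without a variance trend, and Krt17 was not called with a replicate block.

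Differentiation genes of keratinocytes went both ways. Of 22, 3 were higher in the ligand knock-down and 5 in the receptor knock-down (36.4%, all genes 7.10%). Stfa3, a stefin that inhibits cathepsins, was at 207 and 239 in the ligand knock-down, 2 and 9 in the receptor knock-down and 0 in both control libraries (adjusted p = 0.00162). Gjb2, the connexin of wounded epidermis, was at 143 and 135, 17 and 46, and 0 and 0 (2.10 ± 0.45, adjusted p = 0.0306). Klk7 was the other called member on that side. Besides Tgm1, the cornified envelope genes Lor (126 and 102 against 29 and 18, adjusted p = 0.0142) and Sprr1a (218 and 162 against 55 and 64, adjusted p = 0.0252) were higher in the receptor knock-down. S100a14, a calcium-binding protein, was at 1725 and 1691 there, 861 and 841 in the ligand knock-down and 118 and 151 in the control (-1.0 ± 0.16, adjusted p = 0.0103). Cstb, another cathepsin inhibitor, was the fifth. In the fits without ligand knock-down library 1 or 2, 7 of the 8 calls were lost (highest adjusted p 0.338), and 6 and 5 without receptor knock-down library 1 or 2. Sprr and stefin genes have close copies, so their split is uncertain.

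Of 33 integrin, laminin and Fraser complex genes, which tie epithelia to the basement membrane, 6 were called (18.2%, all genes 7.10%). All 6 were higher in the ligand knock-down. The median of the list was 0.26. Itga2, the collagen-binding integrin alpha chain, was at 7381 and 6678 in the ligand knock-down, 2050 and 2455 in the receptor knock-down and 1372 and 912 in the control (1.64 ± 0.19, adjusted p = 0.003). Itga5, of the fibronectin receptor, was at 2242 and 2137, 1406 and 1299, and 574 and 558 (0.69 ± 0.12, adjusted p = 0.0137). Lama3 and Lamb3, chains of laminin-332, differed by 0.72 ± 0.17 and 0.65 ± 0.14 (adjusted p = 0.0431 and 0.0282). Lama3 was at 21692 and 19212, 11477 and 13355, and 4294 and 3011, so both knock-downs lay above the control. Itgb7 and Itga7 were also called. All 6 calls were lost without ligand knock-down library 1 or 2 (highest adjusted p 0.314), and 5 each without receptor knock-down library 1 or 2. Lama3 exons overlap another gene.

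Of 26 metalloproteinases and inhibitors, 4 were higher in the ligand knock-down and 1 in the receptor knock-down (19.2%, all genes 7.10%). Adam19, a membrane sheddase, was at 74 and 116 in the ligand knock-down and 0 in both receptor knock-down libraries, at least 14.2-fold higher against the floor of 3 reads. Mmp3, stromelysin, was at 490 and 346, 143 and 197, and 22 and 27 in the ligand knock-down, the receptor knock-down and the control (1.27 ± 0.27, adjusted p = 0.0313). Timp3, an inhibitor held in the matrix, was at 3819 and 3495, 1605 and 1936, and 12061 and 17275 (1.05 ± 0.18, adjusted p = 0.0122). Both knock-downs were far below the control for Timp3. Adamts7 was higher in the ligand knock-down and Adamts1 in the receptor knock-down (1.27 ± 0.24 and -0.75 ± 0.12, adjusted p = 0.0192 and 0.0111). Mmp9, gelatinase B, was at 3061 and 3171 in the receptor knock-down, 1158 and 1015 in the ligand knock-down and 134 and 43 in the control, without passing (adjusted p = 0.0601). Of 12 genes of the plasminogen system and serpins, 1 was called (8.33%), a share close to that of all genes (7.10%). It was Serpine2, which inhibits plasminogen activators, at 2849 and 2856 against 1488 and 1408 (adjusted p = 0.031). Of the 5 metalloproteinase calls, 4 and 5 were lost without ligand knock-down library 1 or 2 (highest adjusted p 0.282) and 2 and 3 without receptor knock-down library 1 or 2, and Serpine2 was lost without any 1 of the 4.

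Of 39 other guidance genes, of the semaphorin, plexin, ephrin and Slit families, 5 were called (12.8%, all genes 7.10%). All 5 were higher in the ligand knock-down. Sema6a, a membrane semaphorin, was at 1439 and 1287 in the ligand knock-down, 162 and 306 in the receptor knock-down and 90 and 43 in the control (2.58 ± 0.37, adjusted p = 0.00697). Sema3a, a secreted repellent of axons, was at 416 and 367, 98 and 74, and 22 and 64 (2.13 ± 0.41, adjusted p = 0.0201). Sema4f was at 243 and 239, 28 and 56, and 57 and 62 (adjusted p = 0.00492). Plxna2, a semaphorin receptor, was at 473 and 593, 222 and 169, and 558 and 784 (adjusted p = 0.0103), so here the receptor knock-down was the low group. Efnb1, an ephrin, differed by 1.02 ± 0.20 (adjusted p = 0.0225). All 5 lost their call without ligand knock-down library 1 or 2 (highest adjusted p 0.246), and 2 and 3 without receptor knock-down library 1 or 2.

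Inflammatory genes were called in equal numbers on the 2 sides. These were 4 and 4 of 37 cytokine, chemokine and NF-kB target genes (21.6%, all genes 7.10%). Nos2, inducible nitric oxide synthase, was at 1519 and 1939 in the ligand knock-down, 678 and 340 in the receptor knock-down and 39 and 69 in the control (1.83 ± 0.35, adjusted p = 0.0201). Cxcl14, a chemokine of epithelia, was at 131 and 199, 9 and 7, and 41 and 126 (adjusted p = 0.00498). Ccl7, which attracts monocytes, was at 48 and 101, 0 and 5, and 0 and 0 (adjusted p = 0.0108). Il1rap, the co-receptor for interleukin-1, differed by 0.92 ± 0.18 (adjusted p = 0.0196). Cxcl3, Cxcl5, Csf1 and Lepr were higher in the receptor knock-down. Cxcl3, a neutrophil chemokine, was at 1190 and 1380 in the receptor knock-down, 328 and 294 in the ligand knock-down and 1016 and 556 in the control (-2.03 ± 0.26, adjusted p = 0.00414). Cxcl5, of the same family, was at 5392 and 4426, 3086 and 3293, and 947 and 828 (-0.62 ± 0.14, adjusted p = 0.033). Csf1, the ligand of CSF1R, was at 3762 and 3166, 2199 and 2290, and 3815 and 4415 (-0.62 ± 0.13, adjusted p = 0.0271), and Lepr is given above. Of 28 interferon and antigen presentation genes 2 (7.14%) were called, Gbp7 and H2-D1, a share close to that of all genes (7.10%). All 8 inflammatory calls and both of these were lost without ligand knock-down library 1 or 2 (highest adjusted p 0.282), and without receptor knock-down library 1 or 2 the losses were 5 and 4 of the 8 and 1 and 2 of the 2.

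In the Wnt pathway 5 of 34 genes were higher in the ligand knock-down and 2 in the receptor knock-down (20.6%, all genes 7.10%). Apcdd1, a membrane inhibitor of Wnt, was at 171 and 171 in the ligand knock-down, 4 and 5 in the receptor knock-down and 49 and 53 in the control (4.21 ± 0.30, adjusted p = 0.000858). Rspo3, a secreted enhancer of Wnt signals, was at 29 and 34, 2 and 0, and 193 and 327 (adjusted p = 0.00749), so both knock-downs were below the control. Fzd8, a Wnt receptor, was at 59 and 40, 11 and 5, and 85 and 121 (adjusted p = 0.0179). The ligands Wnt10a and Wnt10b were higher in the receptor knock-down by 0.72 ± 0.12 and 1.0 ± 0.19 (adjusted p = 0.0135 and 0.0194). Axin2, a feedback target of the pathway, was at 10 and 28 in the ligand knock-down and 11 and 2 in the receptor knock-down (adjusted p = 0.425). Of the 7 calls, 6 were lost without either ligand knock-down library (highest adjusted p 0.282) and 4 without either receptor knock-down library.

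TGF-beta family genes gave 2 calls on the ligand side and 3 on the other among 31 (16.1%, all genes 7.10%). Pmepa1, a feedback inhibitor induced by TGF-beta, was at 4344 and 4235 in the ligand knock-down, 1274 and 1290 in the receptor knock-down and 2113 and 2405 in the control (1.74 ± 0.11, adjusted p = 0.00085). It was called above the control in 1 knock-down and below it in the other (adjusted p = 0.0015 and 0.0035). Inhba, an activin subunit, was at 701 and 667 against 344 and 408 (0.86 ± 0.18, adjusted p = 0.0282). Id1 and Id2, targets of BMP signals, were lower in the ligand knock-down by 0.98 ± 0.20 and 1.01 ± 0.25 (adjusted p = 0.0275 and 0.0479), and Ltbp1, which stores latent TGF-beta, by 0.54 ± 0.12 (adjusted p = 0.031). Tgfb1 was not called (adjusted p = 0.473). Pmepa1 was the only 1 of the 5 to stay called without ligand knock-down library 1 or 2 (highest adjusted p of the others 0.313), and 4 and 3 calls were lost without receptor knock-down library 1 or 2.

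Targets of YAP and TAZ gave 3 calls for the ligand knock-down and 2 for the receptor knock-down out of 25 (20%, all genes 7.10%). Cyr61, a matricellular protein, was at 4324 and 3921 in the receptor knock-down, 2012 and 2104 in the ligand knock-down and 5882 and 7804 in the control (-1.0 ± 0.15, adjusted p = 0.00732). Ankrd1 was at 2400 and 2444, 1398 and 1400, and 1425 and 1930 (-0.79 ± 0.15, adjusted p = 0.0201), and Ctgf differed by -0.82 ± 0.21 without passing (adjusted p = 0.0573). Dlc1, Wwc1 and Nt5e were on the ligand side. All 3 called genes of 26 AP-1 and immediate early genes (11.5%, all genes 7.10%) were higher in the receptor knock-down. These were Klf2, Fosb and Fos. Fosb was at 3986 and 5851 against 2111 and 2370 (adjusted p = 0.0108). Fos was at 1960 and 2149 against 1222 and 1086 (adjusted p = 0.0288). Jun and Egr1 were not called (adjusted p = 0.291 and 0.619). All calls of both lists were lost without ligand knock-down library 1 or 2 (highest adjusted p 0.300), and without receptor knock-down library 1 or 2 the losses were 5 and 4 of 5 YAP and TAZ targets and 1 each of the 3 others.

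Of 30 genes of the EGF receptor and RAS-ERK feedback, 5 were higher in the ligand knock-down and 3 in the receptor knock-down. The share was 26.7%, against 7.10% of all genes. Spry2, Etv5 and Lrig1, feedback and target genes of receptor tyrosine kinases, differed by 0.88 ± 0.14, 0.77 ± 0.15 and 0.56 ± 0.11 (adjusted p = 0.0103, 0.0193 and 0.022). Lrig1, which lowers EGF receptor levels, was at 7999 and 7431 in the ligand knock-down, 5581 and 4864 in the receptor knock-down and 4705 and 4861 in the control. Dusp6, the ERK phosphatase, went the other way, at 3920 and 3363 in the receptor knock-down against 2428 and 2303 (-0.62 ± 0.12, adjusted p = 0.0206), as did Errfi1, an inhibitor of the EGF receptor, at 11539 and 9265 against 6498 and 6079 (-0.72 ± 0.13, adjusted p = 0.0182). Hbegf, a ligand of that receptor, was the third, and Dusp2 and Btc were low genes on the ligand side. Without ligand knock-down library 1 or 2 none of the 8 calls held (highest adjusted p 0.316), and 7 and 5 were lost without receptor knock-down library 1 or 2.

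Proliferation genes were called at a share below that of all genes (7.10%) and death genes at a share little above it. Of 46 cell cycle genes 2 (4.35%) were called, both higher in the ligand knock-down: Cdkn1b, the inhibitor p27, at 2197 and 2361 against 1511 and 1274 (adjusted p = 0.0471), and Mki67 at 15551 and 14668 against 8733 and 10453 (adjusted p = 0.0451). Of 37 apoptosis and p53 target genes 3 (8.11%) were called. Fas, a death receptor, was at 385 and 315 in the receptor knock-down, 136 and 159 in the ligand knock-down and 537 and 940 in the control (-1.22 ± 0.27, adjusted p = 0.0328). Pmaip1, the pro-apoptotic protein NOXA, was at 1167 and 1056, 744 and 709, and 572 and 668 (-0.61 ± 0.14, adjusted p = 0.0405), and Tigar was on the other side. All 5 calls were lost when any 1 of the 4 knock-down libraries was left out, with a highest adjusted p of 0.306.

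Metabolic and stress lists held a few called members. Of 36 hypoxia and glycolysis genes, 5 were higher in the ligand knock-down and 2 in the receptor knock-down (19.4%, all genes 7.10%). Egln3, the oxygen-sensing prolyl hydroxylase, was at 416 and 428 in the ligand knock-down, 30 and 46 in the receptor knock-down and 88 and 176 in the control (3.34 ± 0.34, adjusted p = 0.00182). Pdk1, which restrains pyruvate oxidation, was at 430 and 489 against 917 and 880 (-0.96 ± 0.14, adjusted p = 0.0072), so targets of the same response were called in both directions. Of 38 cholesterol and fatty acid genes 3 (7.89%) were called, a share close to that of all genes (7.10%). All 3 were higher in the receptor knock-down. Apob, the apolipoprotein of low-density particles, was at 177 and 88 there, 26 and 24 in the ligand knock-down and 945 and 1303 in the control (-2.12 ± 0.33, adjusted p = 0.00946). Scd1 and Ebp were the others.

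Of 35 unfolded protein and integrated stress genes, 4 and 2 were called (17.1%, all genes 7.10%). Phgdh and Asns, enzymes of serine and asparagine synthesis, were higher in the ligand knock-down by 1.27 ± 0.12 and 0.89 ± 0.11 (adjusted p = 0.00162 and 0.00418). Phgdh was at 3510 and 3284, 1342 and 1480, and 4620 and 3910, so the receptor knock-down was the low group, and Asns at 5262 and 4914, 2625 and 2877, and 3644 and 3288. Pdia6, a disulfide isomerase of the endoplasmic reticulum, was at 5149 and 5209 in the receptor knock-down against 2266 and 2290 (-1.18 ± 0.10, adjusted p = 0.00121). All 4 called genes of 15 epithelial channels and transporters (26.7%, all genes 7.10%) were higher in the ligand knock-down. Among them, Slco4a1, an organic anion transporter, was at 183 and 260, 9 and 5, and 0 and 0. Slc12a2, the sodium-potassium-chloride cotransporter, was at 5761 and 5391, 3561 and 3852, and 2187 and 1742. Without ligand knock-down library 1 or 2 the hypoxia list lost 7 of 7 calls each, the lipid list 3 of 3, the stress list 6 and 5 of 6 and the transporter list 3 and 4 of 4 (highest adjusted p 0.294). Leaving out receptor knock-down library 1 or 2 cost them 4 and 3, 2 and 1, 3 and 3, and 2 and 2. Exons of Adam19, Timp3, Adamts7, Spp1, Col5a1, Fat1, Fn1, Zyx, Il1rap, Rspo3, Unc5c, Krt5, Krt6a, Lrig1, Ctgf and Pdia6 also overlap another annotated gene, so their values have the same uncertainty as those named above.

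**Figure D4:**
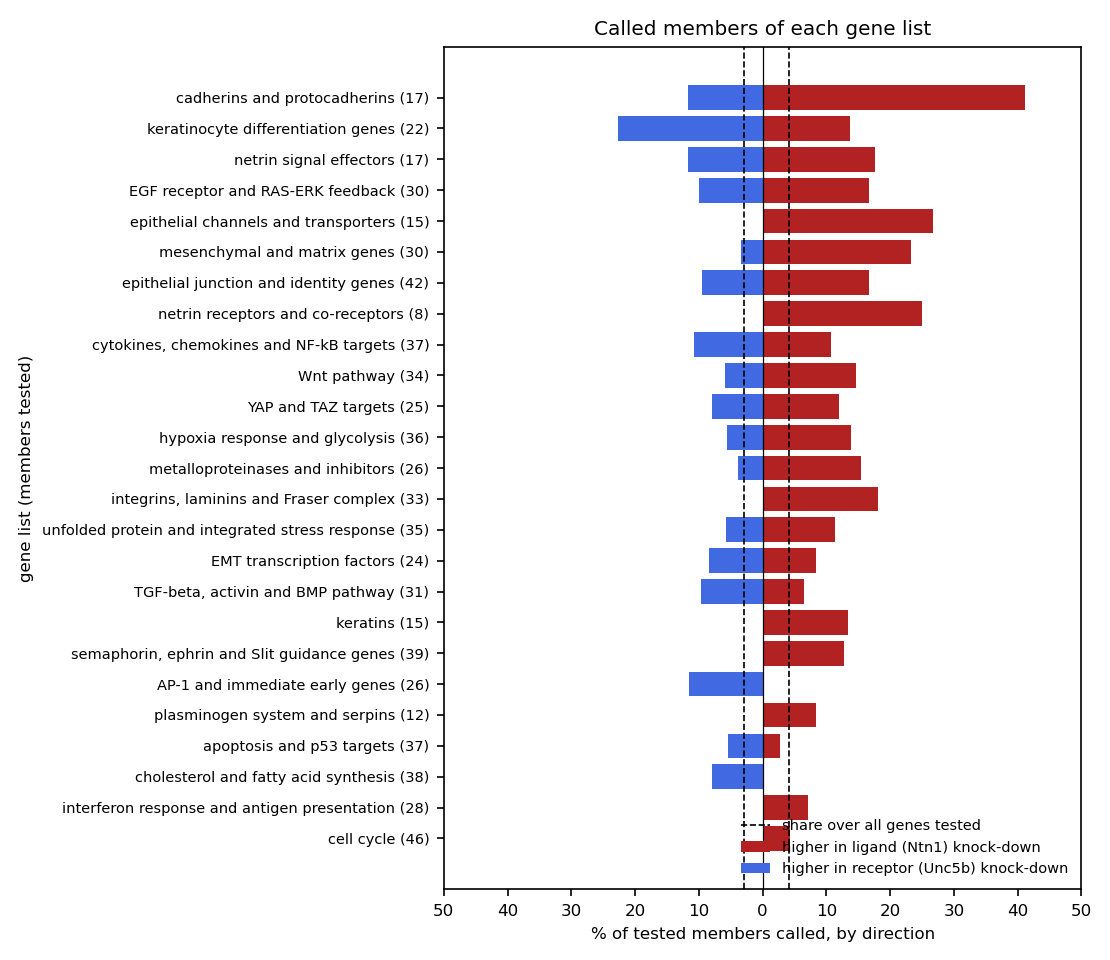
Bars give the share of the tested members of each gene list that were called, to the right for genes higher in the ligand knock-down and to the left for genes higher in the receptor knock-down, with the number tested in brackets and dashed lines at the shares over all genes (4.15% and 2.95%). Lists with fewer than 5 tested members are left out. Cadherins and protocadherins have the longest bar, and integrins, guidance genes and transporters have bars to the right only.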

How the data were processed

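The authors deposited whole-number values per gene and library, treated here as a score because each library sums to about 20 M: per the submitters' processing notes STAR, Picard and HTSeq were used with GRCm38 (mm10), and how reads were counted and scaled is not given in the sources used here. Every value was within 0.5 of a whole multiple of 1 step per library, which gives the depth; no count model was fitted. Genes with a mean of at least 20 were fitted on log2(value + 5) with limma 3.58.1 (R 4.3.3), with 3 groups, all 6 libraries and a variance trend. Tests were 2-sided, with Benjamini-Hochberg adjustment over all genes and calls at 0.05. With 2 libraries on each side an exact permutation test would give no p under 0.333. The members and gene lists were chosen with earlier results of these data known. Some members, such as Adam19 and Ccl7, passed the filter only through the group in which they were high. The called shares of the lists are therefore descriptive.

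Named genes were Ntn1, Unc5b, the 15 largest called differences in each direction (no overlap of libraries, a mean of at least 200 in the higher group, no predicted symbols), up to 4 called members per list and direction, and Epcam, Cdh1, Krt14, Krt5, Vim and Trp63. Genes named beyond this rule (further list members, with their values) were added for context after their values were seen. Of 49671 genes, 49412 matched GENCODE M21, from which exon overlaps were taken without regard to strand. Upstream sequences are from RefSeq. Alternatives were other pseudocounts, filters, variance priors, scalings and sets of libraries, a replicate block, and thinning to the shallowest library, which was chosen after seeing the data. A few items are not reported here.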

Additional observations from a re-analysis of the deposited data

How the results depend on the processing

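The 1088 calls between the knock-downs (636 higher in the ligand knock-down, 452 in the receptor knock-down) became 302 (218 and 84) without a filter on low values, 454 (324 and 130) without a variance trend, and 1856 (1033 and 823) with only the 4 knock-down libraries. Leaving out 1 library gave 34 to 1842 calls, 30 to 1019 higher in the ligand knock-down and 4 to 823 higher in the receptor knock-down. Fits without a filter tested 28618 genes. Otherwise the cause was not tested. Without a filter no call was left in the keratin, cytokine, plasminogen, YAP and TAZ, interferon, cell cycle, apoptosis and cholesterol lists. The 2314 calls of the ligand knock-down against the control (15.1%) became 1289 without a filter and 1462 without a trend, with 507 to 2769 when 1 library was left out. The 1835 calls of the receptor knock-down (12%) became 791 and 1115, with 680 to 2428. A replicate block gave 459 calls between the knock-downs (324 and 135), 1465 for the ligand and 1102 for the receptor knock-down against the control. Whether libraries with the same replicate number belong together is unknown. The deviations of same-numbered libraries correlated at -0.169 (ligand with receptor knock-down), 0.160 (ligand knock-down with control) and -0.450 (receptor knock-down with control). These correlations cannot decide whether the libraries were paired, because the numbers may have been assigned in any order. Other pseudocounts gave 1042 and 1134 calls, a filter at a mean of 100 gave 890, and median-of-ratios and upper-quartile scaling 1094 and 1112. Thinning to the shallowest library, chosen after seeing the data, gave 981. Of the 134 named genes called, none reversed under any alternative. Because their knock-down libraries did not overlap, only a change of scaling or the thinning could have reversed a gene. With 2 libraries a group and 6.54 M reads in the shallowest, differences of genes near 3 reads rest on few molecules, and reads without molecular identifiers are not independent. Where 1 library was left in a group, its spread was taken from the other groups.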

Other observations

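Other genes outside the rule also differed between the knock-downs, and all of those given here were chosen after their values were seen. Nefm, a neurofilament subunit, was at 181 and 122 in the ligand knock-down, 2 and 0 in the receptor knock-down and 0 in both control libraries. Nefl, another neurofilament subunit, was at 133 and 86 in the ligand knock-down and at 0 in the other 4 libraries. Dpysl3 was at 155 and 122, 4 and 0, and 49 and 149 in the same order, the opposite direction to its relative Dpysl2. Uchl1, a deubiquitinase of neurons, was at 107 and 131, 9 and 7, and 4 and 9. Map1b, a microtubule-associated protein, was at 11078 and 10647, 5897 and 6293, and 3437 and 2737, so it was abundant in every library. The adjusted p values by limma were 0.00142, 0.00177, 0.00334, 0.00365 and 0.00917. Hoxa9 and Hoxa10, neighbouring homeobox genes, were at 45 and 73 and at 97 and 104 in the ligand knock-down and at 2 or less in the other libraries (adjusted p = 0.00697 and 0.00174). Exons of Nefm and Nefl overlap each other, so their reads cannot be told apart where strand was not used. Those of Uchl1 and Hoxa9, and of Actg1 and Tgm2 below, also overlap another annotated gene.

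Actg1, Dstn and Qk were low in the receptor knock-down and did not pass against the control in the ligand knock-down (adjusted p = 0.391, 0.368 and 0.87). Actg1, cytoplasmic gamma-actin, was at 8569 and 10356 in the receptor knock-down, 21764 and 20903 in the ligand knock-down and 19715 and 18265 in the control (difference 1.18 ± 0.12, adjusted p = 0.0018). Dstn, the actin-severing destrin, was at 4116 and 4528, 8988 and 8816, and 9512 and 10321 (1.04 ± 0.11, adjusted p = 0.00177). Qk, an RNA-binding protein, was at 3762 and 3634, 7369 and 7103, and 7368 and 7401 (0.97 ± 0.10, adjusted p = 0.00177). Flt4, a receptor of the VEGF family, was below the control in both knock-downs, at 51 and 28 in the receptor knock-down, 416 and 440 in the ligand knock-down and 1262 and 1392 in the control. Its difference between the knock-downs was 3.33 ± 0.25 (adjusted p = 0.000879), and against the control the adjusted p was 0.00443 for the ligand and 7.35e-05 for the receptor knock-down.

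Sel1l2 and Stag3 were present in the receptor knock-down and low or absent elsewhere. Sel1l2 was at 100 and 125 there and at 0 in the other 4 libraries (adjusted p = 0.00142), and Stag3, a cohesin subunit of meiosis, was at 180 and 204, with 10 and 9 in the ligand knock-down and 4 and 18 in the control (adjusted p = 0.00391). Tgm2, tissue transglutaminase, was at 5732 and 5052, 2651 and 2523, and 7209 and 7811 (-1.06 ± 0.11, adjusted p = 0.00209). The predicted gene Gm21738 was at 130 and 118 in the receptor knock-down, 26 and 28 in the ligand knock-down and 2058 and 4116 in the control (adjusted p = 0.00863), and Gm10800 at 466 and 737, 90 and 162, and 1712 and 3363 (adjusted p = 0.0123).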
